A study of Fragaria vesca with 9 samples.

Results

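Of 34006 genes in the deposited tables of woodland strawberry (*Fragaria vesca*) axillary buds, 62 were read in one ecotype only. On one side, 30 genes had counts in the Hawaii-4 background and none in RdV. On the other side, 32 genes had counts in RdV and none in the Hawaii-4 background. The members were chosen on expected counts rounded to whole numbers, with at least 10 counts in each library of one side and 0 in every library of the other. The difference between RdV and the other 6 libraries is therefore what chose them, and it is given below as a description without a test.

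The series concerns what decides the fate of strawberry axillary buds and their outgrowth into branch crowns. It has 3 libraries from each of 3 genotypes. H4 is the Hawaii-4 accession. FT3OE carries Hawaii-4 as both its ecotype and its genotype label, and its name is read here as overexpression of FT3 in that background; neither its promoter nor the number of lines is given in the labels. RdV is a separate ecotype, and its abbreviation is not expanded by the labels. All 9 libraries are stranded mRNA from untreated plants at the 4-leaf stage, taken from undifferentiated buds at node 4 under 16 h days and 8 h nights. H4 titles include US4, a code shared by no other group, and the titles of FT3OE and RdV include UB4. No label defines these codes, so in any comparison with H4 the code and the genotype cannot be told apart. The labels do not say that replicates came from separate plants, and the p-values then reflect only how these libraries vary, possibly for technical reasons.

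An axillary bud is a small shoot tip in the angle of a leaf, and in strawberry it can form a runner or a branch crown. Accessions of one plant species can differ in which genes they carry, in the sequence of the genes they share and in which genes they transcribe. RNA-seq counts a gene only where its transcripts are present in the sample and match the reference well enough to be placed. A count of 0 limits how much RNA was read for an identifier. Whether a member was missing, divergent or silent in the ecotype that did not read it was not tested. Every identifier begins with FvH4, read here as a Hawaii-4 gene set, although no label names the reference. The sides are then not alike. RdV-side members are listed in a gene set of the ecotype that did not read them, and Hawaii-4-side members are not. How well RdV reads match that gene set was not tested. In bulk samples such as these, fewer cells of a type and less RNA per cell cannot be told apart. None of the deposited identifiers matched the gene table used here, so the members carry no names or roles, and neither the labelled tissue nor the FT3 gene could be checked against named genes.

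Totals ranged from 23110936 to 44916866 expected counts per library, a ratio of 1.94. Across genes, log2(CPM + 1) correlated at r = 0.9939 to 0.9985 within a genotype, and from 0.982 to 0.9938 across genotypes, where genes are not independent replicates. CPM are counts scaled to a common library size. The pair RdV 1 and RdV 2 was the lowest within a genotype.

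Both sides were small beside the genes that could have qualified. The 30 Hawaii-4-side members were 0.173% of the 17343 genes with at least 10 counts in each of the 6 H4 and FT3OE libraries. The 32 RdV-side members were 0.181% of the 17696 genes with at least 10 counts in each RdV library. The same rule was applied to each genotype in turn against the other 6 libraries. With H4 set apart it found 0 genes in either direction, and with FT3OE set apart it found 1 in each. FvH4_3g36381 had 14, 14 and 29 counts in H4, 39, 31 and 17 counts in RdV and 0 in all 3 FT3OE libraries. FvH4_1g06140 had 17, 40 and 13 counts in FT3OE 1, 2 and 3 and 0 in the other 6 libraries. Both genes were thus low in the libraries that read them, and the RdV split held nearly all genes that met the rule. Genes that narrowly missed it were not counted for the H4 and FT3OE splits, and they could be strong. FvH4_3g09870 had 7584, 11460 and 13889 counts in FT3OE 1, 2 and 3. It had 3, 1 and 0 counts in H4 and 1, 0 and 0 in RdV.

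Other genes had few counts on the other side without meeting the rule. Among the 17343 genes read throughout the Hawaii-4 background, 9 others had 1 to 3 counts summed over the RdV libraries and 17 had 4 to 10. A further 99 had 11 to 30 and 722 had 31 to 100. In all, 13 genes with RdV counts above 0 were at least 100-fold lower in RdV relative to library totals. Among the 17696 genes read in RdV, 16 others had 1 to 3 counts summed over the 6 other libraries and 12 had 4 to 10. Another 19 had 11 to 30 and 306 had 31 to 100. In this direction 24 genes with counts above 0 on the other side were at least 100-fold lower there. These counts use the contrast that chose the members.

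The genes nearest the threshold differed widely in level. Just inside on the Hawaii-4 side, FvH4_1g03800 had 20, 10 and 24 counts in H4 and 14, 22 and 13 in FT3OE. Just outside, FvH4_3g42840 had 2353, 1691 and 2244 counts in H4 and 2124, 3688 and 3457 in FT3OE, and it missed the rule by 1 count in RdV 2. It was 1 of 6 genes that missed by 1 count on this side. Just inside on the RdV side, FvH4_3g42790 had 15, 13 and 12 counts in RdV 1, 2 and 3. Just outside, FvH4_3g15160 had 573, 348 and 404 counts in RdV and 1 count in FT3OE 3, and it was 1 of 10 genes tied at that distance. Single reads on the other side thus kept out genes with far more counts than the weakest members had.

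The members were expressed at low to moderate levels, with a few exceptions. In TPM, which is scaled by effective gene length and so can be compared between genes, the Hawaii-4-side members had a median of 5.62 over their mean levels in the 6 libraries. Their quartiles were 2.82 and 10.6 and their range 0.657 to 60.0, and 10 of the 30 reached 10 TPM. All 17343 genes read in the same libraries had a median of 20.4 TPM, and 69.7% of them reached 10 TPM. The RdV-side members had a median of 4.63 TPM over the 3 RdV libraries, with quartiles of 1.73 and 8.17 and a range of 0.423 to 25.6, and 6 of the 32 reached 10 TPM. All 17696 genes read in RdV had a median of 20.5 TPM, of which 69.2% reached 10. Only 3 Hawaii-4-side members and 2 RdV-side members lay above the median of the genes read with them.

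Counts were modest as well, and they set how firm each absence is. Summed counts ran from 103 to 6772 on the Hawaii-4 side, with a median of 548, and from 40 to 2041 on the RdV side, with a median of 188.5. In 12 Hawaii-4-side and 8 RdV-side members every library of the side had at least 100 counts. With a floor of 3 counts over the group at 0, the Hawaii-4-side members were at least 14.6-fold to at least 959-fold lower in RdV, with a median bound of 77.6. The RdV-side members were at least 31.4-fold to at least 1600-fold lower in the Hawaii-4 background, with a median bound of 148. These bounds cover counting error only.

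The members' typical level was similar in every library that read them. The median over the Hawaii-4-side members was 5.67, 5.02 and 5.52 TPM in H4 1, 2 and 3 and 5.65, 5.56 and 5.61 TPM in FT3OE. The median over the RdV-side members was 5.34, 4.83 and 4.46 TPM in RdV 1, 2 and 3. On the RdV side 10, 10 and 12 members had their highest CPM in RdV 1, 2 and 3. Over all genes read in RdV these counts were 5354, 7022 and 5320. On the Hawaii-4 side 1, 7 and 3 members were highest in H4 1, 2 and 3 and 4, 8 and 7 in FT3OE 1, 2 and 3. Over all genes read in the same libraries the split was uneven too, at 2389, 3355 and 2983 in H4 and 2711, 3291 and 2614 in FT3OE. Single members spread more than genes in general, with a median ratio of 1.92 between the highest and the lowest TPM on the Hawaii-4 side and 1.51 on the RdV side. That ratio was 1.37 and 1.24 over all genes read in the same libraries, and 1.79 and 1.47 over genes of like counts, whose summed counts lay between the quartiles of the members.

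**Figure D1:**
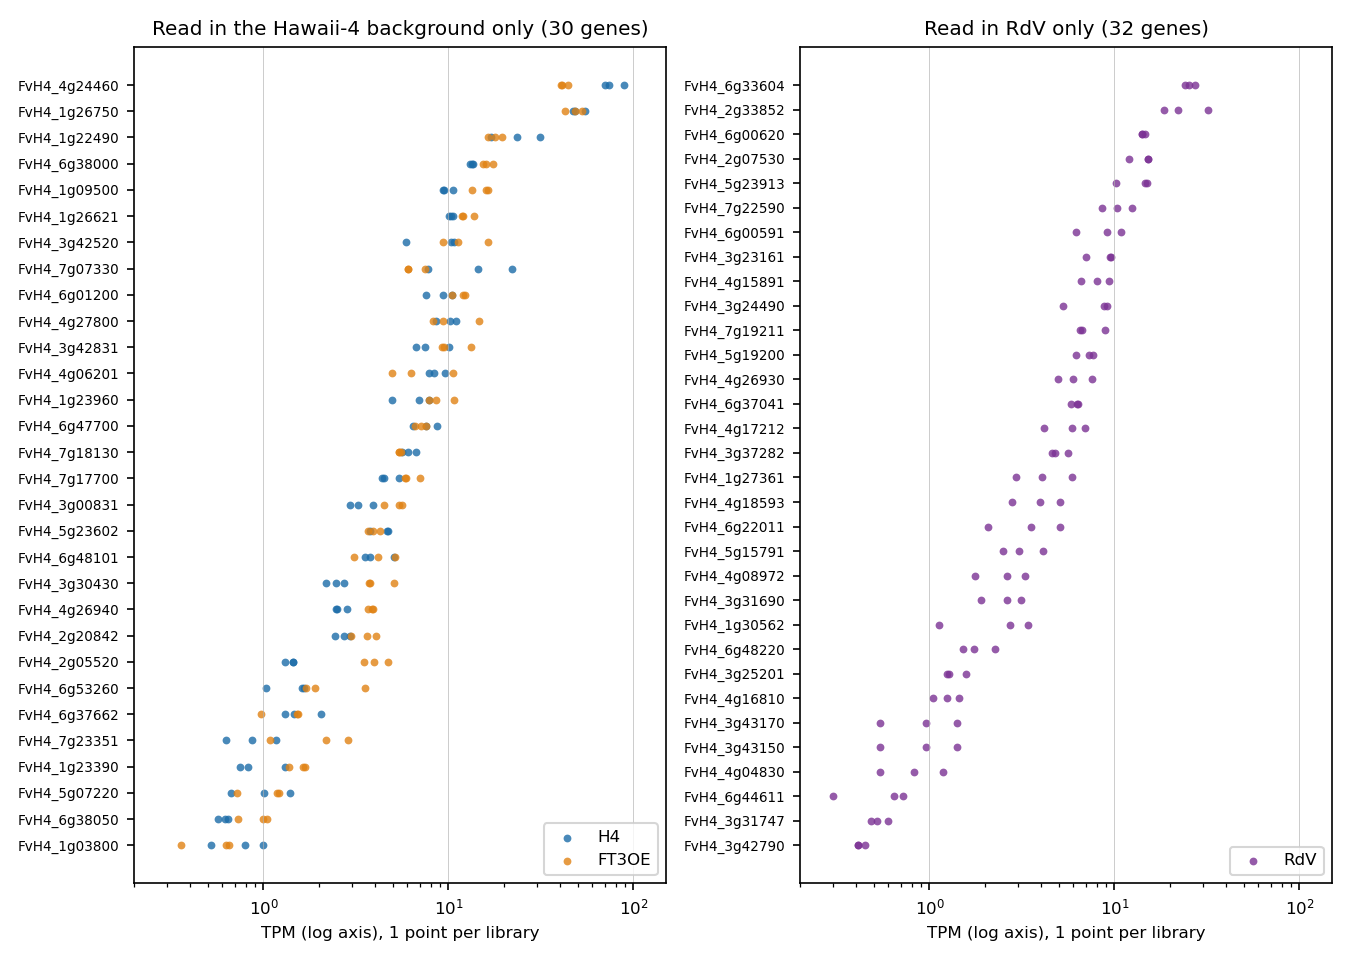
Level in TPM (log axis) of each of the 62 members in the libraries that read it, 1 point per library, with the 30 genes of the Hawaii-4 background on the left (H4 and FT3OE) and the 32 genes of RdV on the right, sorted by mean. FvH4_4g24460 and FvH4_1g26750 stand above 40 TPM in every library shown, and most members lie under 10 TPM.

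The strongest Hawaii-4-side member was FvH4_4g24460, with 70.43, 89.29 and 74.01 TPM in H4 1, 2 and 3 and 44.42, 40.75 and 40.92 TPM in FT3OE. Every FT3OE library lay below every H4 library. FvH4_1g26750 had 47.07, 55.06 and 48.27 TPM in H4 and 52.65, 42.9 and 48.61 TPM in FT3OE, and the groups overlapped. Among the genes read with them, these 2 lay at percentiles 80.8 and 76.2 of mean TPM. FvH4_1g22490 followed with 23.5, 31.25 and 17.06 TPM in H4 and 17.95, 19.44 and 16.32 TPM in FT3OE. Its groups overlapped in TPM, with a wider spread in H4 than in FT3OE. In CPM they did not overlap, and every FT3OE library was lower, but the gene did not pass the test given further on. The other 27 Hawaii-4-side members had means under 15 TPM.

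A further 3 of the 6 strongest Hawaii-4-side members had higher TPM in every FT3OE library than in any H4 library. FvH4_6g38000 had 13.33, 13.01 and 13.57 TPM in H4 and 15.31, 17.37 and 16.02 TPM in FT3OE. FvH4_1g09500 had 9.33, 9.44 and 10.58 TPM in H4 and 13.48, 16.32 and 15.86 TPM in FT3OE. FvH4_1g26621 had 10.59, 10.08 and 10.26 TPM in H4 and 11.95, 13.72 and 11.8 TPM in FT3OE. Of these, only FvH4_1g09500 passed the test given further on. Median TPM over all genes read in the same libraries was also higher in FT3OE. It was 19.4, 18.9 and 19.1 in H4 1, 2 and 3 and 21.4, 21.7 and 21.1 in FT3OE. In CPM, the libraries of H4 and FT3OE did not overlap in 51.1% of all genes tested.

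On the RdV side FvH4_6g33604 was the strongest, with 27.24, 24.08 and 25.43 TPM in RdV 1, 2 and 3. FvH4_2g33852 had 22.15, 32.02 and 18.61 TPM, so its libraries differed more. These were the 2 RdV-side members above the median of the genes read in RdV. FvH4_6g00620 was nearly level at 14.11, 14.68 and 14.04 TPM. FvH4_2g07530 had 15.09, 12.03 and 15.18 TPM, FvH4_5g23913 had 14.56, 15.04 and 10.17 TPM, and FvH4_7g22590 had 12.39, 8.51 and 10.28 TPM. The order within these last 4 changes from library to library. FvH4_3g23161 had the most counts on this side, 783, 550 and 708, at 9.44, 6.98 and 9.57 TPM. Its effective length was 2.41 times the median of the genes read in every library.

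At the low end, 2 Hawaii-4-side and 6 RdV-side members had means under 1 TPM. FvH4_1g03800 had 0.79, 0.52 and 0.99 TPM in H4 and 0.65, 0.63 and 0.36 TPM in FT3OE. FvH4_3g42790 had 0.45, 0.41 and 0.41 TPM in RdV. For members such as these the absence on the other side rests on few counts, with bounds of at least 14.6-fold and at least 31.4-fold.

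The members also differed from other genes in properties that the rule did not use, and part of that difference went with their low counts. Identifier numbers in these tables mostly end in 0, and 9600 of all 34006 identifiers (28.2%) do not. Among the RdV-side members, 19 of 32 (59.4%) had a number not ending in 0, against 10.2% of all genes read in RdV and 17% of the 2394 genes of like counts. Among the Hawaii-4-side members it was 9 of 30 (30%), against 9.93% of the genes read with them and 16.3% of the 3763 genes of like counts. The share was thus higher on both sides than in either background, and it was largest on the RdV side. No test was made of these shares, and the genes of like counts were defined after the data had been seen.

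Expected counts that are not whole, as an estimation gives where it divides reads between similar genes, were more frequent among the members. Such a count occurred in at least 1 library for 9 of 30 Hawaii-4-side members (30%), against 5.02% of the genes read with them and 7.95% of genes of like counts. On the RdV side it occurred for 13 of 32 members (40.6%), against 5.01% and 7.94%. The other 40 members had whole counts in every library, which does not show that their reads were unshared. FvH4_3g43150 and FvH4_3g43170, given further on, are among these 40 and had the same counts in every library. Whether members have near-identical copies was not tested, and levels are uncertain where reads were divided.

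Members tended to be short. Effective length was computed as count over TPM and divided by a median within the same library. That median was taken over the 17067 genes with at least 10 counts in all 9 libraries. This relative length had a median of 0.655 on the Hawaii-4 side and 0.53 on the RdV side. It was 0.992 and 0.991 for all genes read in the same libraries, and 0.739 and 0.704 for genes of like counts. A value under 0.5 was found in 11 Hawaii-4-side members (36.7%) and 15 RdV-side members (46.9%), against 29.5% and 32.7% of genes of like counts. The range on the Hawaii-4 side ran from 0.0512 for FvH4_7g07330 to 2.52 for FvH4_7g17700, so long genes were present too. Among short members a level in TPM rests on few reads: FvH4_7g07330 had a mean of 10.6 TPM from 117 counts over 6 libraries.

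**Figure D2:**
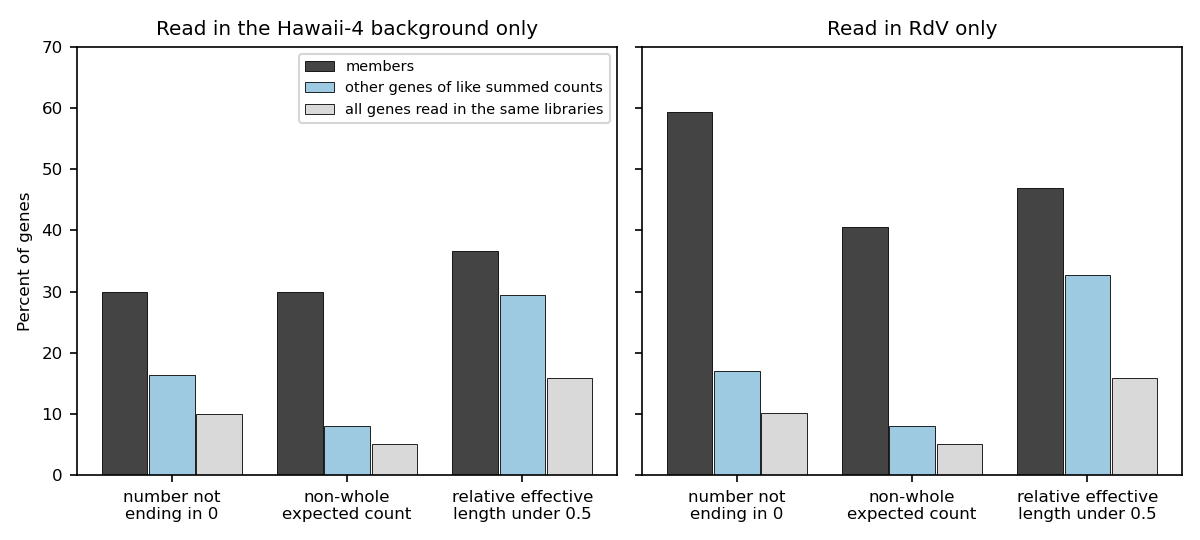
Percent of genes (vertical axis, from 0) with an identifier number not ending in 0, with a non-whole expected count in at least 1 library, and with a relative effective length under 0.5, for the members, other genes of like summed counts and all genes read in the same libraries. The members have the highest bar in all 6 sets, and the difference from genes of like counts is widest for the numbers not ending in 0 on the RdV side (59.4% against 17%).

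The members were spread over all 7 linkage groups, which are read here from the digit before the g of the identifier, with the number after it taken as the order along the group. Places count identifiers and are not base pairs. Linkage group 1 held 7 Hawaii-4-side members (23.3%) and 11.4% of the genes read with them, but only 2 RdV-side members (6.25%, against 11.3%). Linkage group 3 held 9 RdV-side members (28.1%), against 15.8% of the genes read in RdV, and 4 Hawaii-4-side members (13.3%, against 15.6%). Linkage group 6, the largest, held 7 members of each side (23.3% and 21.9%), against 18.9% and 19.0% of genes read. Linkage group 4 held 4 and 7, linkage group 7 held 4 and 2, linkage group 5 held 2 and 3, and linkage group 2 held 2 of each side. With so few members a group these shares are descriptions, and no test was made.

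Members ranged from consecutive identifiers to far apart. The median distance to the nearest member of either side was 81 places, the range was 1 to 2657, and 28 of the 62 members were over 100 places from the next. Of all members, 11 (17.7%) lay within the first or last 10% of their linkage group, against 21.2% of all genes read on either side. FvH4_1g30562 of the RdV side was the last of the 3769 identifiers of linkage group 1. FvH4_3g00831 of the Hawaii-4 side, at place 94 of linkage group 3, was 2657 places from its nearest member, the most isolated of all.

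**Figure D3:**
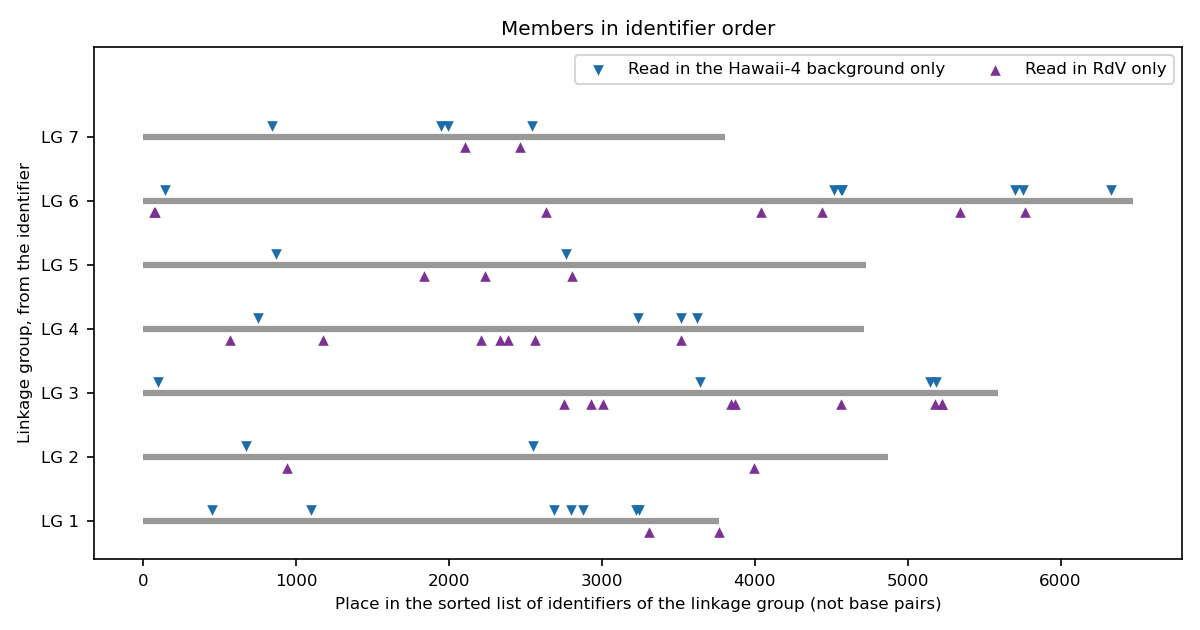
Place of each member in the sorted identifiers of its linkage group (horizontal axis, in identifiers and not base pairs), with the Hawaii-4 side above and the RdV side below each bar, whose length is the number of identifiers. Members lie along all 7 groups, with a knot of 5 members between places 5147 and 5226 of linkage group 3.

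The members at most 5 places from another were 8, of which 2 were of the Hawaii-4 side and 6 of the RdV side, and they formed 4 pairs. When places were counted only among identifiers with at least 1 count in any library, it was 12 members. In 2 of the 4 pairs the sides were mixed. FvH4_4g26930 and FvH4_4g26940 are consecutive identifiers and were read in opposite ecotypes. FvH4_4g26930 had 39, 47 and 28 counts in RdV (5.99, 7.53 and 4.98 TPM) and 0 elsewhere. FvH4_4g26940 had 181, 118 and 150 counts in H4 and 200, 327 and 334 in FT3OE (2.48 to 3.89 TPM) and 0 in RdV. FvH4_4g26892, 2 places before the first of them, had 7, 6 and 3 counts in H4, 19, 17 and 33 in FT3OE and 0 in RdV. So this stretch held a gene read in RdV beside genes read in the Hawaii-4 background.

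The other mixed pair lay in linkage group 3, 5 places apart. FvH4_3g42790 was read in RdV at 0.41 to 0.45 TPM, and FvH4_3g42831 had 26, 16 and 15 counts in H4 and 30, 34 and 33 in FT3OE, at 6.66 to 13.18 TPM. Of the 4 identifiers between them, FvH4_3g42810 and FvH4_3g42830 had 0 counts in every library. FvH4_3g42800 had 12, 1 and 7 counts in H4 and at most 1 in any other library. FvH4_3g42820 had 10, 2 and 14 counts in H4, 10, 20 and 15 counts in FT3OE and 66, 50 and 31 counts in RdV, and every RdV library lay above the other 6. FvH4_3g42780, next to the first member, had 18, 20 and 13 counts in RdV and a single count in the other 6 libraries. FvH4_3g42840, 3 places past the second member, is the gene just outside the threshold, with 43.08 to 51.29 TPM in the Hawaii-4 background and 1 count in RdV. In identifier order, FvH4_3g42780, FvH4_3g42790 and FvH4_3g42820 were thus higher in RdV, and FvH4_3g42831 and FvH4_3g42840 after them were lower, while FvH4_3g42800 was too low to be tested.

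In the remaining 2 pairs both members were read in RdV. FvH4_3g43150 and FvH4_3g43170 each had 28, 15 and 36 counts in RdV 1, 2 and 3, at 0.96, 0.54 and 1.4 TPM. Their counts were the same in all 9 libraries, as were their TPM, so they are not independent and cannot be told apart from 1 signal entered under a pair of identifiers. Of 19775 genes with at least 30 summed counts, 22 shared all 9 counts with another gene, and these were the 2 members among them. FvH4_3g43160 between them had 0 counts in every library. FvH4_3g43140 before them had 14, 16 and 21 counts in RdV and 1 count in the other 6 libraries, while FvH4_3g43180 after them had 87.15 to 124.85 TPM in all 9 libraries, with overlap of the groups.

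FvH4_6g00591 and FvH4_6g00620 lay 3 places apart near the start of linkage group 6, with 10.88, 6.18 and 9.08 TPM and 14.11, 14.68 and 14.04 TPM in RdV. FvH4_6g00600 between them was strong in every genotype, with 98.17, 109.76 and 98.72 TPM in H4, 90.54, 92.77 and 85.81 TPM in FT3OE and 64.85, 64.26 and 70.84 TPM in RdV. RdV was thus lowest in this gene, but far from 0. Within the same window of identifiers a shared gene and 2 genes read in one ecotype stood side by side.

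A wider window found 1 denser stretch. The densest 100 places of any linkage group held 5 members over 80 places of linkage group 3, from FvH4_3g42520 to FvH4_3g43170, with 2 of the Hawaii-4 side and 3 of the RdV side. The densest 100 places held 3 members in linkage groups 1 and 6 and 1 or 2 in each of the others. This window was chosen after the data had been seen. Counting FvH4_3g43150 and FvH4_3g43170 as 1 leaves the stretch with fewer independent members than its count.

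The identifiers directly beside members were quieter than those beside other read genes. Of 59 identifiers next to Hawaii-4-side members, 22 (37.3%) had 0 counts in every library and 17 (28.8%) had at least 10 counts in all 9. Of 61 next to RdV-side members, 25 (41.0%) had 0 counts everywhere and 24 (39.3%) had at least 10 in all 9. Beside any gene read in the same libraries these shares were 22.2% and 59.8% for the Hawaii-4 side, and 22.5% and 59.6% for the RdV side. Over all 34006 identifiers, 30.8% had 0 counts in every library. The shares beside genes of like counts were not computed, so whether the difference goes with the members' low counts was not tested.

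Neighbours of the members were compared between RdV and H4, taking 5 tested genes on each side of a member. A gene was called at an adjusted p under 0.05 by edgeR's quasi-likelihood test, and 48.1% of the 18587 genes tested were called between RdV and H4, 24.4% higher in RdV and 23.6% lower. Of 287 neighbours of Hawaii-4-side members, 74 (25.8%) were higher and 84 (29.3%) lower. Of 289 neighbours of RdV-side members, 72 (24.9%) were higher and 72 (24.9%) lower. With 2 tested genes on each side, 20.5% of the Hawaii-4-side neighbours were higher and 35.9% lower, and of the RdV-side neighbours 24.6% were higher and 28.0% lower. None of these differences from the share of all genes was tested. With limma on log2(TPM + 1) the Hawaii-4-side neighbours turned from more lower to more higher calls, at 94 higher and 54 lower, and the RdV-side neighbours had 87 higher and 43 lower. Over all genes the same fit called 30.4% higher and 14% lower, and it moved the median log2 change between RdV and H4 from -0.004 to 0.114. With log2(TPM + 0.1) the lower neighbours numbered 55 and 42.

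The same neighbours were compared between RdV and FT3OE, which carry the same title code. Over all genes 11.1% were called higher in RdV and 11.1% lower. Of the neighbours of Hawaii-4-side members, 45 (15.7%) were higher and 56 (19.5%) lower. Of those of RdV-side members, 35 (12.1%) were higher and 42 (14.5%) lower. Both comparisons use the same RdV libraries and are not independent. The share of RdV-side neighbours higher in RdV, 12.1%, was thus near the 11.1% of all genes. The other 3 shares lay further above the background, by most for the lower neighbours of Hawaii-4-side members. No test was made of these differences.

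Closer in, a few neighbours stood out by size. The nearest tested gene on either side of each Hawaii-4-side member gave 59 genes, of which 6 (10.2%) were called at least 8-fold lower in RdV than in H4 and 2 were called at least 8-fold higher. Over all genes tested these shares were 0.716% and 0.85%. The sizes are fitted and are no bounds for genes with 0 counts in RdV. Such genes among the 6 were FvH4_4g26892, FvH4_1g23400 and FvH4_7g07340, with only 16, 29 and 41 counts summed over H4. At a limit of 2-fold, 9 of the 59 were higher and 9 lower, against 7.4% and 4.03% of all genes tested. Of 60 nearest genes on the RdV side, 3 (5.0%) were at least 8-fold higher in RdV and 1 was at least 8-fold lower, while 7 were higher and 6 lower at 2-fold. Both limits were chosen after the data had been seen. The 6 genes became 3 with a filter of 1 CPM in 3 libraries, 4 with only the 6 libraries of RdV and H4, 9 with no filter, and 2 and 3 with limma on log2(TPM + 1) and log2(TPM + 0.1). Without any 1 library the count was 6 to 8. The 3 genes of the RdV side became 1 with the filter of 1 CPM and 1 with limma on log2(TPM + 1), and 2 with no filter.

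The neighbours at or past that limit are named here after their values were seen. FvH4_4g24500, 4 places from the strongest member FvH4_4g24460, had 1383, 1470 and 1326 counts in H4, 619, 780 and 843 counts in FT3OE and 3, 2 and 3 counts in RdV. Like FvH4_4g24460 itself it was lower in every FT3OE library than in any H4 library, at log2 -1.46 ± 0.15 (SE, adjusted p = 5.89e-05). FvH4_6g37972, 2 places from FvH4_6g38000, had 72, 49 and 51 counts in H4, 65, 88 and 125 counts in FT3OE and 1, 0 and 2 counts in RdV. FvH4_7g07340, next to FvH4_7g07330, had 20, 9 and 12 counts in H4, 17, 26 and 17 in FT3OE and 0 in RdV, and so missed the rule in a single library. FvH4_1g23400, next to FvH4_1g23390, had 8, 8 and 13 counts in H4, 43, 53 and 22 in FT3OE and 0 in RdV. With FvH4_3g42840 and FvH4_4g26892 above, these are the 6 genes that were lower beside Hawaii-4-side members. FvH4_4g26892 is also the 1 gene lower beside an RdV-side member, since it lies next to the mixed pair.

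Neighbours could also move against the side of the member beside them. FvH4_2g20842, a Hawaii-4-side member with 2.69 ± 0.241 TPM in H4 and 3.56 ± 0.552 TPM in FT3OE (SD, n = 3 each), had 0 counts in RdV. The next identifier, FvH4_2g20843, had 401, 359 and 422 counts in RdV, at 11.86, 11.17 and 14.07 TPM, and 2 counts in all in the other 6 libraries. The 2 identifiers were thus read almost wholly in opposite ecotypes, as with FvH4_4g26930 and FvH4_4g26940, and the count of FvH4_2g20842 was not whole in at least 1 library. FvH4_7g23330, 3 places from the Hawaii-4-side member FvH4_7g23351, had 9, 7 and 12 counts in H4, 14, 19 and 10 counts in FT3OE and 181, 131 and 140 counts in RdV, at log2 3.89 ± 0.30 for RdV against H4 (SE, adjusted p = 3.66e-06).

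Beside RdV-side members the strongest such gene was FvH4_7g22580, 5 places from FvH4_7g22590. It had 337, 219 and 305 counts in RdV, 2, 3 and 0 in H4 and 1, 0 and 0 in FT3OE. Together with FvH4_7g22590, at 529 counts summed over RdV, it made a pair of genes read at 7.27 to 12.39 TPM in RdV and hardly or not at all in the other 6 libraries. The other 2 genes at least 8-fold higher in RdV were FvH4_3g42780 and FvH4_3g43140, given above with the members they flank.

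**Figure D4:**
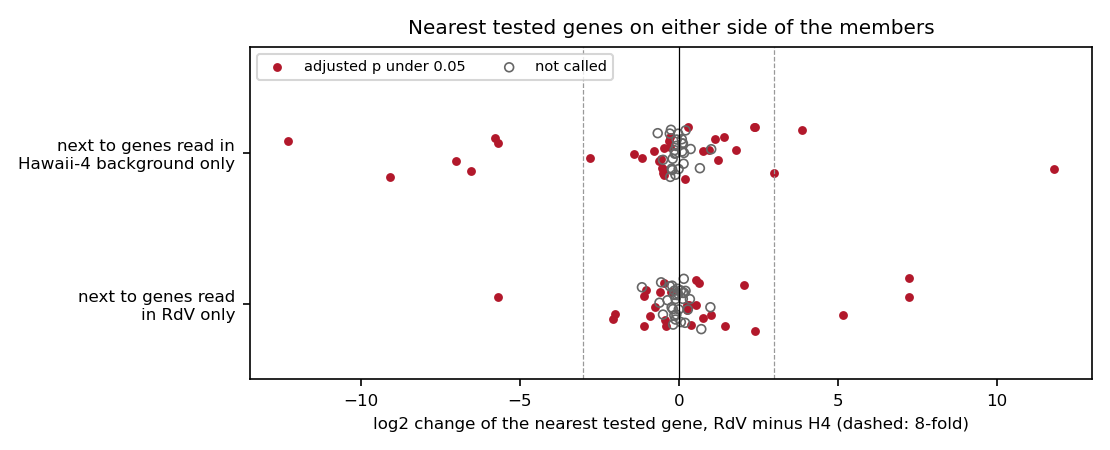
log2 change (RdV minus H4) of the nearest tested gene on either side of each member, 59 genes for the Hawaii-4 side and 60 for the RdV side, filled where called at an adjusted p under 0.05 by edgeR, with dashed lines at 8-fold and vertical scatter only to part the points. Most neighbours lie near 0, and 6 beside Hawaii-4-side members lie past the left line; fitted changes of genes at or near 0 counts in one group depend on the prior count and are no bounds.

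FT3OE and H4 were on the same side of the rule, so their difference within the 30 Hawaii-4-side members was not used to choose them, although the minimum of 10 counts in all 6 libraries limits how low a member can be in either. All 30 members passed the filter on low counts. By edgeR's quasi-likelihood test with Benjamini-Hochberg adjustment over all 18587 genes, 2 members were higher in FT3OE, 1 was lower and 27 were not called. Over all genes 31.7% were called, 16.7% higher and 14.9% lower, and among the genes of like counts 24.1% were called, 16.9% higher and 7.25% lower. With 3 calls among 30 members, the difference from these shares was not tested. In each direction 1 member changed by at least 2-fold, against 3.59% of all genes tested higher and 1.81% lower.

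FvH4_4g24460 was lower in FT3OE, with a log2 change of -1.01 ± 0.12 (SE, adjusted p = 0.000381) and a 2.02-fold difference, from 31.1 CPM in H4 to 15.4 CPM in FT3OE. FvH4_2g05520 had 1.45, 1.45 and 1.31 TPM in H4 and 3.48, 4.7 and 3.94 TPM in FT3OE. It was higher in FT3OE by 1.17 ± 0.23 on the log2 scale, 2.26-fold (SE, adjusted p = 0.00553). FvH4_1g09500, whose TPM are given above, was higher by 0.52 ± 0.11, 1.43-fold (SE, adjusted p = 0.00666). In each of these 3 members the libraries of H4 and FT3OE did not overlap. All 3 were called in each of 19 fits, counting the reported one and those with other scaling, tools, filters or libraries.

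Other members moved less or varied too much to be called. FvH4_7g23351 had the second largest estimate, 1.07 ± 0.41 on the log2 scale (SE, adjusted p = 0.0788), with overlap between H4 and FT3OE. FvH4_3g00831 was at 0.48 ± 0.16 (SE, adjusted p = 0.0511) and FvH4_4g26940 at 0.38 ± 0.14 (SE, adjusted p = 0.064), both without overlap. The CPM of H4 and FT3OE did not overlap in 11 of 30 members, 8 higher and 3 lower in FT3OE, against 51.1% of all genes tested and 41.7% of genes of like counts. The median log2 change of the members was 0.18, with quartiles of -0.26 and 0.45, 18 estimates above 0 and 12 below. Over all genes tested it was 0.01. Their median absolute change was 0.36, against 0.21 over all genes. The members had fewer counts, a median of 548 summed counts against 4839 for all genes read in the same libraries. The absolute change of genes of like counts is not given here, so this difference is not read as a larger response.

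The count of members higher in FT3OE depended on the processing more than the count lower. It was 4 without RdV 1, 4 without RdV 2, 5 when only the 6 libraries of H4 and FT3OE were fitted, 5 with library totals alone and 12 with limma on log2(TPM + 1) or log2(TPM + 0.1). Over all genes the share called higher was 17.1% without RdV 1, 19.3% without RdV 2, 19.5% with the 6 libraries, 24.6% with library totals, and 23.5% and 22.8% with the 2 limma fits. The cause was not tested. Library totals alone moved the median log2 change of all genes from 0.013 to 0.107, and limma on TPM moved it to 0.128 and 0.146. FvH4_3g00831 was called in 9 of the 19 fits and FvH4_4g26940 in 6. The 32 RdV-side members had 0 counts in both H4 and FT3OE, so no such comparison exists for them.

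**Figure D5:**
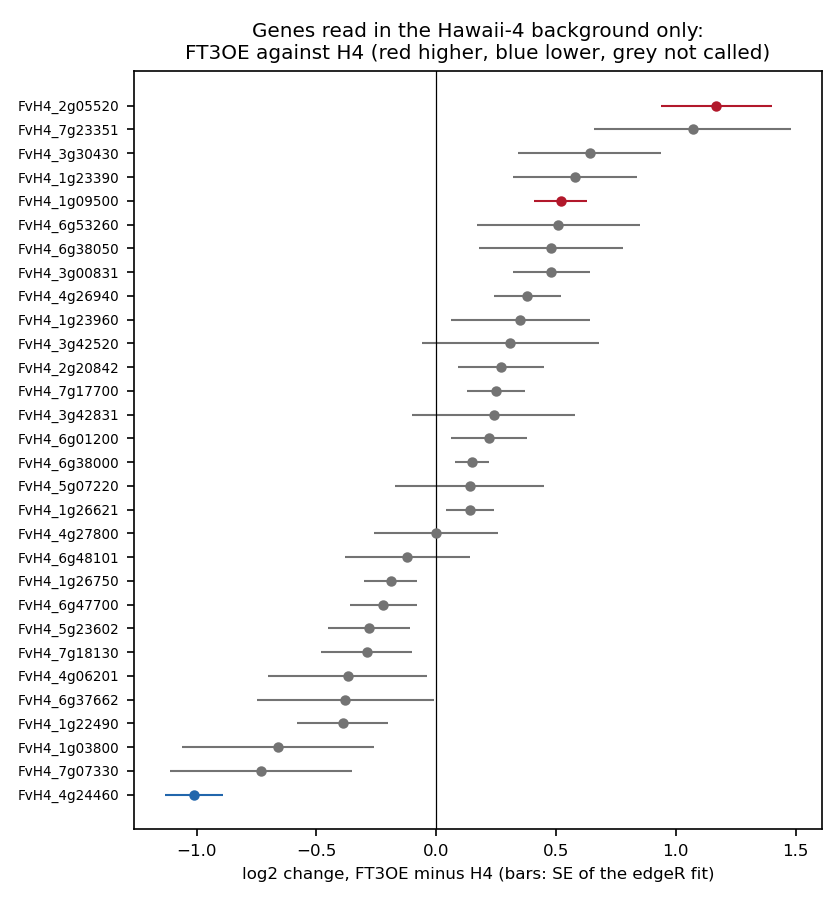
log2 change (FT3OE minus H4) of the 30 Hawaii-4-side members, coloured where called at an adjusted p under 0.05. Bars are 1 standard error, derived from the log2 change and the F statistic of the edgeR test. FvH4_2g05520 (1.17) and FvH4_1g09500 (0.52) are higher, FvH4_4g24460 (-1.01) is lower, and the other 27 are not called.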

How the data were processed

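For 9 axillary bud libraries and 34006 genes, the authors deposited a table of expected counts and a table of TPM. Expected counts are estimates, not normalized, and 97.5% of the values were whole; TPM, also deposited by the authors, are divided by effective gene length and scaled to a fixed sum per library. The submitters' processing notes list STAR, RSEM and edgeR with no version or role. The build of the genome is not given in the sources used here, nor is its annotation. Reads were sequenced as 150 bp pairs, per the labels' protocols. Samples were grouped by their labels.

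Counts were rounded to whole numbers, filtered with filterByExpr (18587 genes left), scaled with TMM and tested in R 4.3.3 with edgeR 4.0.16 (glmQLFit, then glmQLFTest), all 9 libraries in one fit without a replicate block, with Benjamini-Hochberg adjustment over all genes tested. The standard errors (SE) printed with log2 changes are not an output of that test. They were derived as the absolute log2 change over the square root of its F statistic. The members were found and described with Python 3.11.15. Members, lists and rules were chosen with earlier results of these data known.

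Members given in every library were the 6 strongest per side, those at most 5 places from another, those called between FT3OE and H4, and those at the threshold. Alternatives were RLE scaling, library totals, limma 3.58.1 on log2(TPM + 1) and log2(TPM + 0.1), DESeq2 1.42.0, other filters and thresholds, fits of 6 libraries, a replicate block and leaving out each library. Fold limits for neighbours, genes of like counts and the window of 100 places were chosen later, with the data in view. Totals of 23110936 to 44916866 limit each absence to a floor of 3 counts over the group.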

Additional observations from a re-analysis of the deposited data

How the results depend on the processing

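The member counts of 30 and 32 became 16 and 15 with a minimum of 50 counts and 12 and 8 with a minimum of 100, and the RdV side had 57 with up to 3 counts allowed in each library of the other side. Leaving out 1 library gave 30 to 36 and 32 to 37. Median levels of 5.62 and 4.63 TPM correspond to 2.74 and 2.18 in CPM, and ranged over 5.5 to 5.7 and 4.51 to 5.07 TPM without 1 library. The 2 Hawaii-4-side members higher in FT3OE were 5 with library totals alone, 12 and 12 with limma and its 2 pseudocounts, 5 with only the 6 libraries compared, and 2 to 4 without 1 library; the 1 lower was 2 and 2 with limma and 1 to 1 without 1 library. The 84 lower neighbours of the Hawaii-4 side were 54 and 55 with limma (73 to 89 without 1 library), and the 72 of the RdV side 43 and 42 (63 to 85). The higher neighbours were 60 to 72 and 61 to 76 without 1 library. The 8 members at most 5 places from another became 2, 4 and 14 within 1, 2 and 20 places. The cause of these changes was not tested, beyond the tighter or looser limits themselves. Of 178 values recomputed for 10 named members between FT3OE and H4, 167 kept their direction and side of the threshold and 11 newly passed it.

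The labels do not say that replicate numbers pair the samples. Deviations of same-numbered libraries from their group means correlated at r = -0.178 to 0.181. Libraries of different numbers were not compared in this way, so a pairing was not tested. With the number as a replicate block, 2 members were higher and 1 lower in FT3OE, as without it. Fewer counts limit the low members most, and the RdV side had 10 members under 100 summed counts.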
